A study of Mus musculus with 18 samples.

Results

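The immunity-related GTPases (IRG) and guanylate-binding proteins (GBP) were described as 10 genes, the IRG genes Igtp, Irgm1, Irgm2, Iigp1, Tgtp1 and Tgtp2 and the GBP genes Gbp2, Gbp3, Gbp7 and Gbp9. They were found by matching Ensembl identifiers to symbols with GENCODE M21, and they are 10 of 55536 genes in the table. All 10 were among the 15204 genes that passed the filter on low counts. RNA was sequenced from sorted mouse CD4 T cells in 18 libraries, 3 in each of 6 groups, and the study asked what the ubiquitin ligase Cbl-b controls in a mouse model of T cell anergy. The peripheral groups were Cbl-b-/-W131AOTII, which lacks Cbl-b and carries W131A, Cbl-b-/- OTII, which lacks Cbl-b, W131AOTII, which carries W131A, and OTII. The thymic groups were W131AOTII and OTII CD4 single positive cells. W131A is a substitution in the kinase Zap70, which acts just below the T cell receptor, and every group, the OTII controls included, carried the OT-II T cell receptor transgene on C57BL/6. Peripheral cells were sorted as naive, with low CD44 and with CD62L, and all cells were sorted as Va2+ and without CD25. The protocol names 6 mice for Cbl-b-/-W131AOTII in groups of 2, 3 mice for Cbl-b-/-, 12 mice for W131AOTII in groups of 4, and 3 mice for OTII. No treatment is named, and neither ages nor a map from mice to libraries were found in the labels, so whether a library pools mice, or whether libraries (thymic and peripheral ones included) share mice, is not known here. The n of 3 given below counts libraries, and the p-values measure the spread between them, which may in part be technical.

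IRG and GBP proteins are large GTPases that interferons, above all interferon-gamma, induce in many mouse cells. They gather on the vacuoles of intracellular parasites and bacteria and help to break them, and the machinery that conjugates ATG8 proteins in autophagy guides them there. The IRG proteins Igtp (also called Irgm3), Irgm1 and Irgm2 are the regulatory GMS proteins, which sit on the cell's own membranes and keep the effector GKS proteins inactive. Iigp1 (Irga6), Tgtp1 and Tgtp2 (Irgb6) are GKS proteins. Irgm1 is also needed for the survival of activated T cells in interferon-gamma responses. Interferon-gamma acts on promoters that hold gamma-activated sites (GAS) and, through Irf1, on interferon-stimulated response elements (ISRE), and type I interferon acts on the ISRE through a complex that holds Stat2 and Irf9.

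The names GMS and GKS refer to the GTP-binding loop, and the coding bases of that loop in GENCODE M21 transcripts show how the members divide. The capitals mark the codon at which both classes differ.
Igtp: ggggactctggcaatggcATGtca
Irgm1: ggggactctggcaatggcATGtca
Irgm2: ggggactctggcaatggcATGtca
Tgtp2: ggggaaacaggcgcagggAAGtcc
Gbp2: ggcctctaccgcacaggcAAAtcc
Gbp7: ggactataccgtacgggaAAAtcc
The 3 GMS members were identical over these 24 bases, although their whole coding sequences shared 64.0% to 68.3% of aligned bases. Tgtp1 and Tgtp2 had 1244 identical bases among 1248 coding bases, or 99.7%. The GBP members shared 59.1% to 76.5%, and Gbp3 and Gbp7 were the most alike of them.

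The promoters show what the members share upstream. Each window below holds the 130 bases before a RefSeq start site (GRCm38.p6), read along the gene's strand, and the capitals mark matches to the ISRE (GAAA, any 2 bases, GAAA) or the GAS (TTCNNNGAA), searched on both strands.
Igtp, chr11:58199426-58199555, plus strand: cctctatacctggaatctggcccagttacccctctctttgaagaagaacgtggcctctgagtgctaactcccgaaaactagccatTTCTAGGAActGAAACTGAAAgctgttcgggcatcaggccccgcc
Irgm2, chr11:58214847-58214976, plus strand: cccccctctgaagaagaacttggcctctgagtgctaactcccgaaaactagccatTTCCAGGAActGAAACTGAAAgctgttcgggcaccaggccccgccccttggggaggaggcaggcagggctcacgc
Tgtp1, chr11:48992247-48992376, minus strand: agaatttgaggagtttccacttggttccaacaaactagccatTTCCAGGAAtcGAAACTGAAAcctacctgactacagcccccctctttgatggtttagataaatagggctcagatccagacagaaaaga
Tgtp2, chr11:49064213-49064342, minus strand: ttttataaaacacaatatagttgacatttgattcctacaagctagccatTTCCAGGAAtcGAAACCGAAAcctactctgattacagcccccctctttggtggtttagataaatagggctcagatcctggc
Gbp3, chr3:142559914-142560043, plus strand: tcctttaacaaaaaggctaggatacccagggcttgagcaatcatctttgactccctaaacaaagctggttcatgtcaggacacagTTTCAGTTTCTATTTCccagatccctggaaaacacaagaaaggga
Gbp7, chr3:142530206-142530335, plus strand: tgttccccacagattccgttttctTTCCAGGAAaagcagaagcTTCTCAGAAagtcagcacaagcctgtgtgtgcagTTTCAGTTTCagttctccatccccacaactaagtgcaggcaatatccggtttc
In Gbp3, 2 overlapping ISRE matches form 1 run of capitals.

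The promoter table (250 bases before to 50 after the start) was used for 8 members, and Iigp1 and Gbp9 are named only. An ISRE match lay in a promoter of all 8 genes, and 3.44% of the 32851 mouse promoters in the table held one. A GAS match lay in the promoters of 5 genes, Igtp, Irgm2, Tgtp1, Tgtp2 and Gbp7, against 8.30% of all promoters. Both motifs occurred together in 0.45% of all promoters. In Igtp, Irgm2, Tgtp1 and Tgtp2 the GAS match stood 2 bases before the ISRE match on the coding strand. That arrangement, searched for after it was seen in these promoters, occurred on either strand in 5 of the 32851 promoters, these 4 among them. All matches lay between the start site and 106 bases before it. These matches describe letters in a window and are not measured binding.

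**Figure D1:**
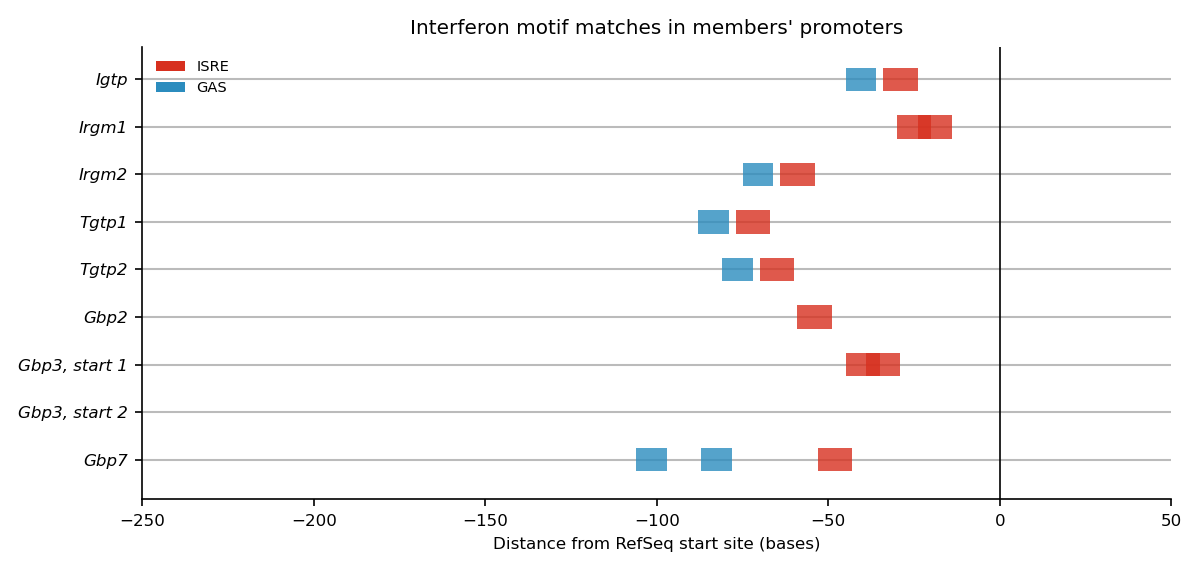
Positions of ISRE (red) and GAS (blue) matches in 9 promoters of 8 members, with the distance from the RefSeq start site in bases on the x axis. A GAS match stands directly before an ISRE match in Igtp, Irgm2, Tgtp1 and Tgtp2, and the second start of Gbp3 has no match.

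Igtp, Irgm1, Irgm2, Tgtp1 and Tgtp2 lie on chromosome 11, Gbp2, Gbp3 and Gbp7 on chromosome 3, Gbp9 on chromosome 5 and Iigp1 on chromosome 18 (GRCm38). Igtp (58199556 to 58207591) and Irgm2 (58199618 to 58222782) overlap on the plus strand, with 162 exon bases in common. Reads were 50 bases long, and 12.3% of the 50-base windows of the Igtp transcripts also occur in Irgm2. For Tgtp1, 91.4% of windows occur in another gene, and for Tgtp2 90.6%, so the split of counts between these genes is uncertain. Tgtp1 took 34.1% to 44.8% of the summed counts of both genes in every library. The other members shared 0.8% to 12.8% of their windows with another gene.

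Libraries held 19708218 to 36218772 counts, and the 10 members together took 0.176% to 0.318% of the counts in every library outside the Cbl-b-/- OTII group, where they took 0.448% to 0.550%. The smallest count of any member in any library was 494. Trac, the constant segment of the T cell receptor alpha chain, lay between 7274 and 16608 CPM (read counts scaled to library size, here with TMM factors) in all libraries, as a check of the cell type. As a check of the genotypes, Cblb averaged 69.5 CPM in Cbl-b-/- OTII cells and 129.4 CPM in OTII cells, a log2 fold change of -0.89 (edgeR adjusted p = 0.00605). It had 93.6 CPM in Cbl-b-/-W131AOTII cells and 158.8 CPM in W131AOTII cells (log2 fold change -0.76, edgeR adjusted p = 0.0142). Cblb transcripts were therefore lower but present in both groups that lack the gene by label, and which exons the counts fall on was not analysed here. Mean correlations across genes with the other libraries of the same group were lowest in the 3 Cbl-b-/- OTII libraries. They had r = 0.9731 to 0.9767, against 0.9771 to 0.9892 in the other 15 libraries. Cbl-b-/- OTII replicate 2 was the lowest, and W131AOTII replicate 2 had the most myeloid marker RNA. Both of these replicates and thymic OTII replicate 3, which earlier results of these data had marked, were left out together in an alternative fit.

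All 10 members rose in peripheral Cbl-b-/- OTII cells relative to OTII cells. The increase was 1.66-fold to 3.68-fold in the ratio of mean CPM, with Iigp1 at the top and Irgm1 at the bottom of that range. In this comparison 8.21% of all genes tested changed, and 5.22% of all genes tested rose. For every member the lowest Cbl-b-/- OTII library stood above the highest OTII library, which held for 14.9% of all genes. The median log2 fold change of the members was 1.13, against 0.045 for all genes tested.

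Among the regulatory IRG genes, Igtp had the highest level. It had 1575, 1498 and 1457 CPM in the Cbl-b-/- OTII libraries, against 694.1, 665.1 and 630.5 CPM in the OTII libraries. The groups lay far apart relative to their spread, and the log2 fold change was 1.19 ± 0.11 (SE, edgeR adjusted p = 1.06e-05). Irgm1, the member tied to survival of activated T cells, had 738.2, 661.5 and 771.1 CPM in the Cbl-b-/- OTII libraries, against 452.3, 433.0 and 421.6 CPM in the OTII libraries. Its change was the smallest estimate among the members, 0.73 ± 0.12 (edgeR adjusted p = 0.00188). Irgm2 averaged 280.2 ± 37.2 CPM in Cbl-b-/- OTII cells and 155.6 ± 20.2 CPM in OTII cells (SD, n = 3 each), a log2 fold change of 0.85.

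The effector IRG genes had larger fold changes. Iigp1 had 621.0, 528.7 and 714.0 CPM in the Cbl-b-/- OTII libraries, against 203.0, 148.5 and 155.5 CPM in the OTII libraries. Its log2 fold change of 1.88 ± 0.24 (edgeR adjusted p = 0.000121) was the largest estimate among the 10, although differences between members were not tested. Tgtp1 rose by 1.41 ± 0.17 and Tgtp2 by 1.22 ± 0.16 on the log2 scale (edgeR adjusted p = 6.31e-05 and 0.000162). Since their reads cannot be told apart well, their sum is the firmer quantity: it averaged 501.5 ± 28.8 CPM in Cbl-b-/- OTII cells and 203.6 ± 33.2 CPM in OTII cells (SD, n = 3 each).

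The GBP members rose too. Gbp2 had 704.8, 636.1 and 597.0 CPM in the Cbl-b-/- OTII libraries, against 286.3, 325.1 and 313.1 CPM in the OTII libraries, a log2 fold change of 1.07 ± 0.14 (edgeR adjusted p = 0.000162). Gbp3, at lower levels, had 101.1, 94.4 and 104.6 CPM in the Cbl-b-/- OTII libraries, against 45.0, 41.4 and 38.4 CPM in the OTII libraries. Its libraries varied little, and its log2 fold change was 1.26 ± 0.13 (edgeR adjusted p = 2.52e-05). Gbp7 averaged 398.8 ± 47.5 CPM in Cbl-b-/- OTII cells and 235.1 ± 14.6 CPM in OTII cells (SD, n = 3 each), a log2 fold change of 0.76. Gbp9 was the least certain member: it had 452.0, 326.1 and 486.7 CPM in the Cbl-b-/- OTII libraries, against 291.8, 200.4 and 225.0 CPM in the OTII libraries. Its log2 fold change of 0.82 ± 0.21 passed the threshold (edgeR adjusted p = 0.0223). Without Cbl-b-/- OTII replicate 1 or 3, or without OTII replicate 2 or 3, its adjusted p lay between 0.0609 and 0.129.

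Over all 18 libraries, 9 of the 10 members had their 3 highest levels in the 3 Cbl-b-/- OTII libraries. The exception was Gbp9, with 326.1 CPM in the lowest Cbl-b-/- OTII library and 396.5 CPM in thymic W131AOTII replicate 2. The share of all genes with their 3 highest levels in the Cbl-b-/- OTII libraries is not given here. For Igtp the gap was widest in CPM, with 1457 CPM in the lowest Cbl-b-/- OTII library and 772.5 CPM in W131AOTII replicate 3, the highest of the rest. More (or fewer) cells of a type and more (or less) RNA per cell cannot be told apart in these bulk samples.

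**Figure D2:**
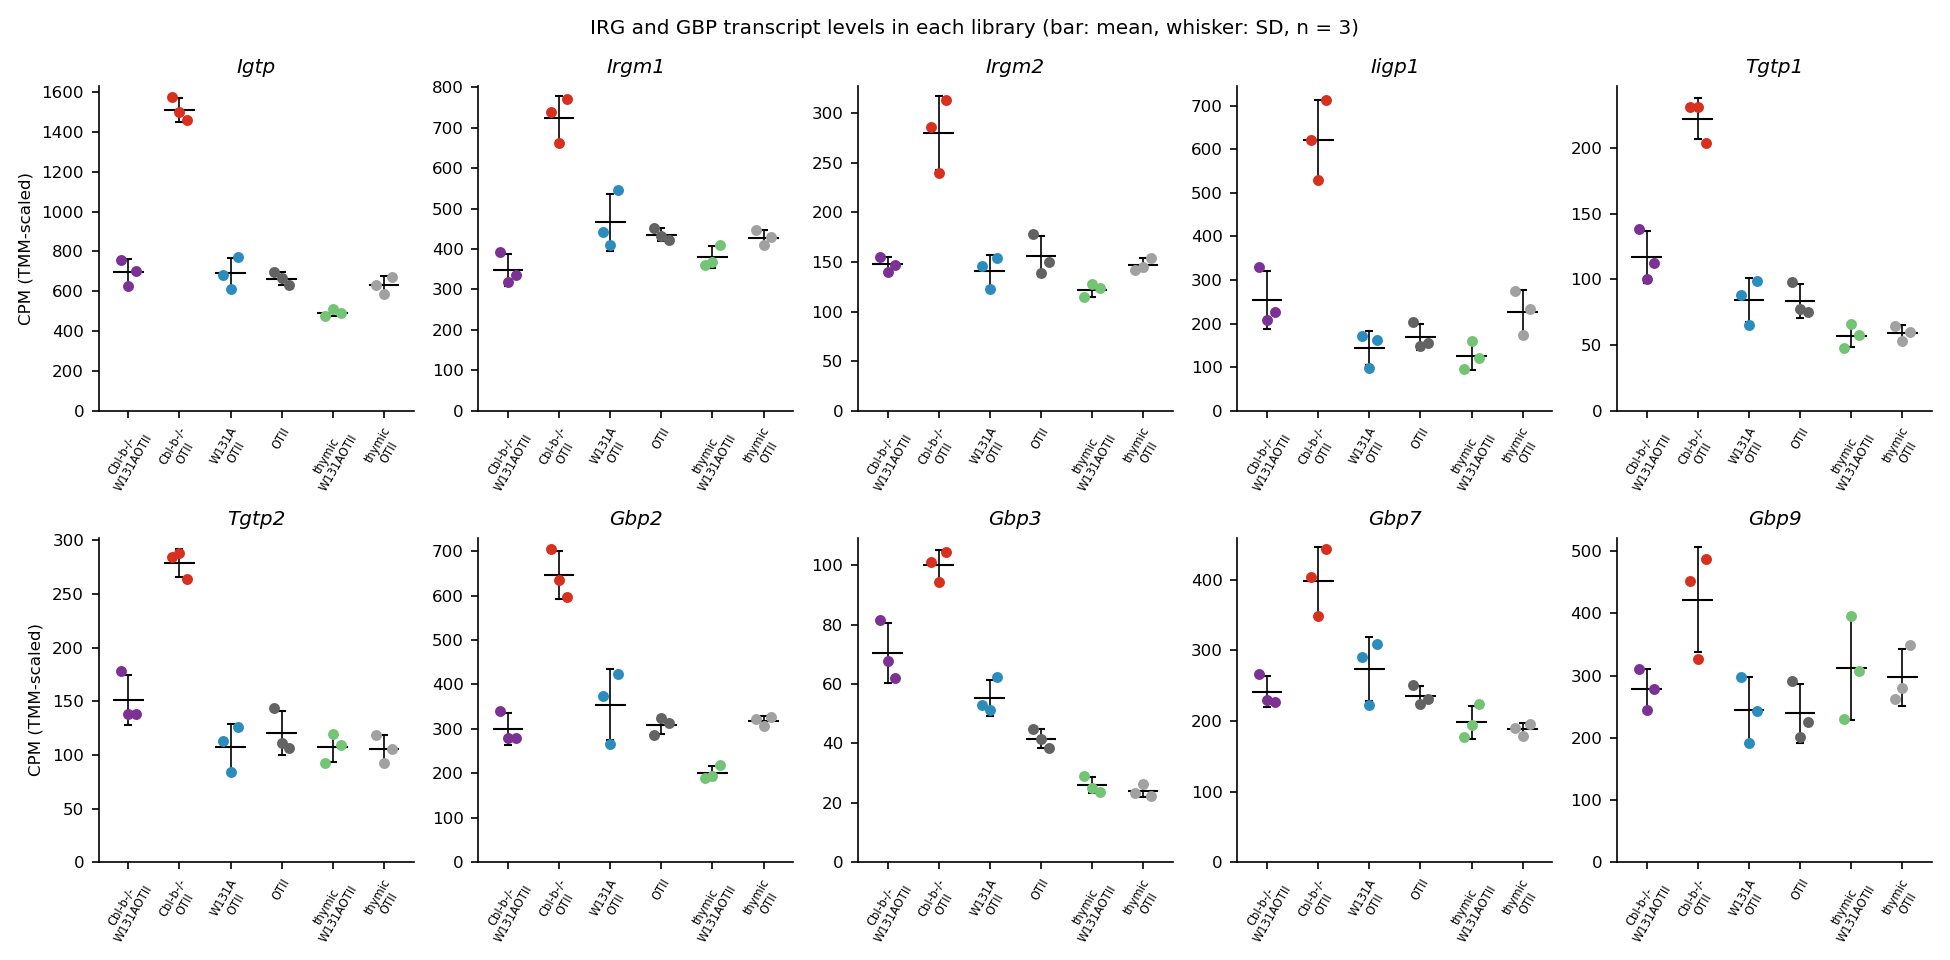
Transcript level of each member (CPM on TMM-scaled library sizes, linear axes from 0) in each library of the 6 groups, with the mean as a bar and the SD as whiskers (n = 3). The 3 Cbl-b-/- OTII libraries are the highest for every member but Gbp9, while the Cbl-b-/-W131AOTII libraries sit near the groups that have Cbl-b for most members.

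Other cells could contribute to a sorted sample, so marker lists were summed. Myeloid and dendritic cell markers (12 genes) summed to 25.4 to 44.6 CPM in Cbl-b-/- OTII libraries, against 16.9 to 21.6 CPM in OTII libraries. Most of that was Lyz2, a myeloid lysozyme, with 23.2 CPM on average in Cbl-b-/- OTII cells and 8.95 CPM in OTII cells; Cd68, a macrophage marker, had 1.56 CPM in Cbl-b-/- OTII cells and 2.14 CPM in OTII cells. B cell markers (10 genes) summed to 1622 to 1989 CPM in Cbl-b-/- OTII libraries, against 1876 to 2178 CPM in OTII libraries, nearly all of it Ighm. Effector and memory T cell markers (9 genes) summed to 160.7 to 243.7 CPM in Cbl-b-/- OTII libraries, against 102.0 to 127.0 CPM in OTII libraries, and 7 of the 9 rose. Regulatory T cell markers (6 genes) summed to 128.7 to 169.9 CPM in Cbl-b-/- OTII libraries, against 92.9 to 100.5 CPM in OTII libraries. None of the genes on these 4 lists was at 0 in all libraries of either group. NK and innate-like T cell markers (10 genes) summed to 241.0 to 361.9 CPM in Cbl-b-/- OTII libraries, against 231.8 to 263.6 CPM in OTII libraries, which overlapped. The part of other cells in the change of the members was not tested. Without the 3 libraries left out together, all 10 members still passed the threshold.

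With W131A present, the members did not move one way with the loss of Cbl-b. Between Cbl-b-/-W131AOTII and W131AOTII cells, 1 member rose and 1 fell, while 9.25% of all genes changed, 3.18% upward and 6.08% downward. Iigp1 had 329.3, 207.5 and 225.5 CPM in the Cbl-b-/-W131AOTII libraries, against 171.3, 98.1 and 162.4 CPM in the W131AOTII libraries. These groups did not overlap, and the log2 fold change was 0.82 ± 0.23 (edgeR adjusted p = 0.036). Irgm1 had 392.6, 317.4 and 335.7 CPM in the Cbl-b-/-W131AOTII libraries, against 441.6, 409.5 and 546.3 CPM in the W131AOTII libraries, a log2 fold change of -0.42 (edgeR adjusted p = 0.038). The other GKS genes lay higher without passing: Tgtp1 lay at 100.1 to 138.8 CPM in Cbl-b-/-W131AOTII libraries, against 65.5 to 98.9 CPM in W131AOTII libraries (log2 fold change 0.47, edgeR adjusted p = 0.0744). Tgtp2 lay at 138.0 to 178.2 CPM in Cbl-b-/-W131AOTII libraries, against 83.8 to 125.6 CPM in W131AOTII libraries (log2 fold change 0.49, edgeR adjusted p = 0.0584). The libraries of both groups were thus apart for all 3 GKS genes, and the share of all genes so apart is not given here. An unadjusted edgeR p under 0.05 was found for 5 of the 10 members and for 4164 of the 15204 genes tested. Neither call is firm: no member passed without W131AOTII replicate 2 or 3, or without any 1 of the Cbl-b-/-W131AOTII libraries, and library-size scaling called 4 members higher and none lower. Igtp averaged 695.4 ± 65.0 CPM in Cbl-b-/-W131AOTII cells and 688.9 ± 80.1 CPM in W131AOTII cells (SD, n = 3 each).

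The direct comparison of both groups that lack Cbl-b showed lower levels with W131A. In Cbl-b-/-W131AOTII cells 8 of the 10 members fell relative to Cbl-b-/- OTII cells, where 1.89% of all genes changed and 1.09% fell. Igtp had 758.2, 628.4 and 699.5 CPM in the Cbl-b-/-W131AOTII libraries, against the 1457 to 1575 CPM of the Cbl-b-/- OTII libraries. That was less than the lowest Cbl-b-/- OTII value by a wide margin, and the log2 fold change was -1.12 ± 0.11 (edgeR adjusted p = 1.45e-05). Gbp2 had 340.5, 280.1 and 279.3 CPM in the Cbl-b-/-W131AOTII libraries, against 597.0 to 704.8 CPM in the Cbl-b-/- OTII libraries (log2 fold change -1.11). Irgm1 and Iigp1 fell by 1.05 and 1.29 on the log2 scale. Gbp3 had a log2 fold change of -0.51 (edgeR adjusted p = 0.053) and Gbp9 one of -0.60 (edgeR adjusted p = 0.144), and neither passed. Without Cbl-b-/-W131AOTII replicate 2 the count was 5 members. Markers of other cells also differed between these groups. Myeloid and dendritic cell markers summed to 10.9 to 14.1 CPM in Cbl-b-/-W131AOTII libraries, against 25.4 to 44.6 CPM in Cbl-b-/- OTII libraries, with Siglech at 0 in all Cbl-b-/-W131AOTII libraries. Regulatory T cell markers summed to 375.9 to 426.8 CPM in Cbl-b-/-W131AOTII libraries, against 128.7 to 169.9 CPM in Cbl-b-/- OTII libraries, and 5 of the 6 rose. NK and innate-like T cell markers summed to 423.2 to 565.6 CPM in Cbl-b-/-W131AOTII libraries, against 241.0 to 361.9 CPM in Cbl-b-/- OTII libraries. Most of that difference was Trdc, a T cell receptor delta segment, which averaged 231.1 CPM in Cbl-b-/-W131AOTII cells and 91.0 CPM in Cbl-b-/- OTII cells. Some genes of the list averaged lower in Cbl-b-/-W131AOTII cells, among them Ncr1, at 0 in all of these libraries. Effector and memory markers summed to 275.3 to 310.9 CPM in Cbl-b-/-W131AOTII libraries, against 160.7 to 243.7 CPM in Cbl-b-/- OTII libraries. That rise was mainly Il2rb, which averaged 221.5 CPM in Cbl-b-/-W131AOTII cells and 95.7 CPM in Cbl-b-/- OTII cells. Most other genes of the list averaged lower in Cbl-b-/-W131AOTII cells, Cd44 among them (28.4 against 33.8 CPM). The part of these other cells in the members' change was not tested.

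The interaction tests whether the effect of Cbl-b loss differed between cells with and without W131A. It was negative for all 10 members, so that the difference was smaller with W131A, and it passed for 6 of them, Igtp, Irgm1, Irgm2, Gbp2, Gbp3 and Gbp7, while 0.631% of all genes passed and 0.592% were lower. For Gbp2 it was -1.31 on the log2 scale (edgeR adjusted p = 0.00211), for Igtp -1.17 (edgeR adjusted p = 0.000569) and for Irgm1 -1.15 (edgeR adjusted p = 0.00184). For the GKS genes the estimates were -1.06 for Iigp1, -0.94 for Tgtp1 and -0.72 for Tgtp2, with edgeR adjusted p between 0.0843 and 0.208. The count fell to 3 members with library-size scaling, and without any 1 of W131AOTII replicate 3, Cbl-b-/-W131AOTII replicate 2 or 3, or OTII replicate 2 or 3. With library-size scaling the median of all genes was 0.115, against -0.018 in the main fit. Igtp, Irgm1 and Gbp2 passed in all 20 alternatives.

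**Figure D3:**
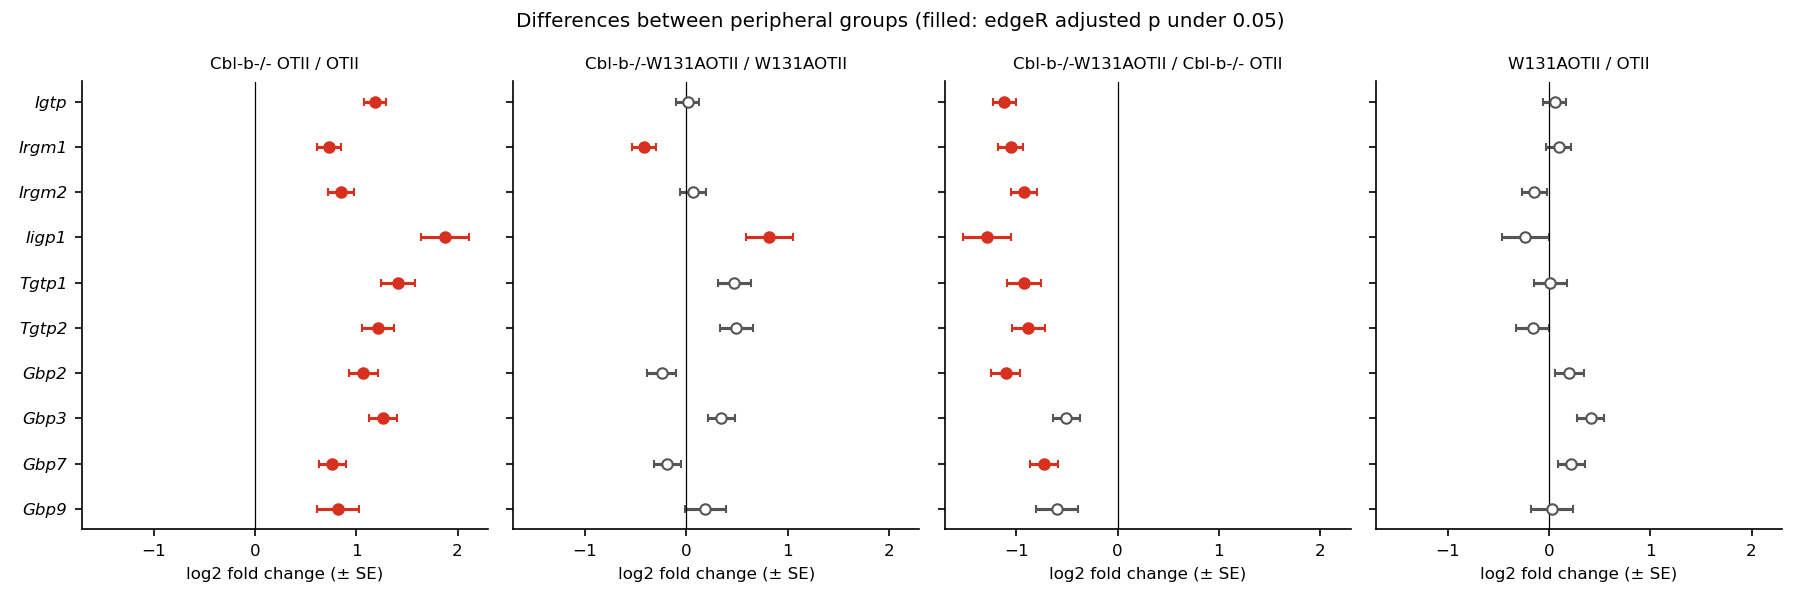
Log2 fold change (x axis, ± SE) of each member in 4 comparisons between peripheral groups, filled red where the edgeR adjusted p is under 0.05. All 10 members lie right of 0 for Cbl-b-/- OTII against OTII and left of 0 for Cbl-b-/-W131AOTII against Cbl-b-/- OTII, and none is filled for W131AOTII against OTII.

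Relative to OTII cells, Cbl-b-/-W131AOTII cells had 1 member higher, in a comparison where 7.39% of all genes changed and 3.87% rose. It was Gbp3, with 81.5, 67.7 and 61.9 CPM in the Cbl-b-/-W131AOTII libraries, against 45.0, 41.4 and 38.4 CPM in the OTII libraries. The groups did not overlap, and the log2 fold change was 0.76 (edgeR adjusted p = 0.00153), past the threshold in all 14 alternatives. The 3 GMS genes had ratios of mean CPM between 0.80 and 1.05, and the GKS genes between 1.26 and 1.50, none of them past the threshold.

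With W131A alone, no member passed the test in the periphery. Between W131AOTII and OTII cells, edgeR called 0 of the 10 members and DESeq2 called 0, while 1.93% of all genes changed. An unadjusted edgeR p under 0.05 was found for 1 member and for 1411 of the 15204 genes tested. The ratios of mean CPM ran from 0.85 for Iigp1 to 1.33 for Gbp3. Igtp averaged 688.9 ± 80.1 CPM in W131AOTII cells and 663.2 ± 31.8 CPM in OTII cells (SD, n = 3 each). Markers of regulatory T cells were higher in the W131AOTII libraries, at 364.4 to 400.8 CPM summed against 92.9 to 100.5 CPM in the OTII libraries, and effector and memory markers summed to 284.9 to 417.1 CPM in the W131AOTII libraries, against 102.0 to 127.0 CPM in the OTII libraries. NK and innate-like T cell markers summed to 520.7 to 713.6 CPM in the W131AOTII libraries, against 231.8 to 263.6 CPM in the OTII libraries, and 3 of the 10 rose. Myeloid markers reached 100.9 CPM in W131AOTII replicate 2. Igkc, a B cell marker, ran from 42.4 to 486.3 CPM in the W131AOTII libraries and from 53.3 to 63.5 CPM in the OTII libraries. The part of these cells in the members' levels was not tested.

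In the thymus 1 member fell with W131A, where 2.77% of all genes changed and 1.04% fell. Gbp2 had 190.2, 193.2 and 219.8 CPM in the thymic W131AOTII libraries, against 321.3, 305.5 and 325.8 CPM in the thymic OTII libraries. The groups were well apart, and the log2 fold change was -0.66 ± 0.14 (edgeR adjusted p = 0.0134), although it no longer passed without thymic OTII replicate 3. Igtp averaged 491.9 ± 16.0 CPM in thymic W131AOTII cells and 630.2 ± 44.4 CPM in thymic OTII cells (SD, n = 3 each); its libraries did not overlap, but its edgeR adjusted p was 0.096. Whether W131A acted differently in the periphery and the thymus was tested directly: edgeR called 0 members and DESeq2 called 1, while 0.381% of all genes passed. An unadjusted edgeR p under 0.05 was found for 2 members and for 1448 of the 15204 genes tested. The estimate for Gbp2 was 0.86 (edgeR adjusted p = 0.0691). Markers of other cells differed between the thymic groups. Of the regulatory T cell markers, Foxp3, Il2ra and Lrrc32 rose with W131A, Gpr83 fell, and Ikzf2 and Ctla4 did not pass. Among the NK and innate-like T cell markers, Zbtb16 averaged 10.5 CPM in thymic W131AOTII and 0.72 CPM in thymic OTII cells. Gzma averaged 264.7 and 295.4 CPM. The part of other cells in the members' thymic levels was not tested.

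Peripheral cells differed from thymic cells in some members. In OTII cells 2 members were higher in the periphery, where 18.3% of all genes changed, 7.75% upward. Gbp3 had 45.0, 41.4 and 38.4 CPM in the peripheral OTII libraries, against 23.3, 26.2 and 22.3 CPM in the thymic OTII libraries (log2 fold change 0.80, edgeR adjusted p = 0.000268). Tgtp1 had a log2 fold change of 0.49 (edgeR adjusted p = 0.0453), and it did not pass when any 1 library was left out. Tgtp2 had a ratio of mean CPM of 1.14, and the sum of both genes overlapped, at 181.1 to 241.7 CPM in peripheral and 145.7 to 183.5 CPM in thymic OTII libraries. In W131AOTII cells 5 members were higher in the periphery, where 19.2% of all genes changed, 8.07% upward: Gbp3 by 1.10, Gbp2 by 0.82, Tgtp1 by 0.56, Igtp by 0.49 and Gbp7 by 0.47 on the log2 scale. Gbp7 and Tgtp1 no longer passed without peripheral W131AOTII replicate 1 or 3 or thymic W131AOTII replicate 1, nor did Gbp7 without thymic W131AOTII replicate 2 or Tgtp1 without thymic W131AOTII replicate 3. The Tgtp2 ratio of mean CPM was 1.003 there, and the sum of Tgtp1 and Tgtp2 overlapped, at 149.3 to 224.5 CPM in peripheral and 140.9 to 185.5 CPM in thymic W131AOTII libraries. Tgtp1 took 40.6% to 44.0% of that sum in peripheral libraries of the OTII and W131AOTII groups, against 34.1% to 36.3% in the thymic ones. For its calls between periphery and thymus, a change of Tgtp1 itself and the uncertain split of counts between both genes cannot be told apart here. B cell markers summed to 1945 to 3181 CPM in peripheral W131AOTII libraries, against 631.7 to 976.8 CPM in thymic ones. Ighm averaged 1924 CPM in the peripheral and 783.4 CPM in the thymic W131AOTII group. Markers of NK and innate-like T cells went both ways. Gzma averaged 11.6 CPM in peripheral and 264.7 CPM in thymic W131AOTII cells, and Prf1 averaged 285.2 and 57.1 CPM. The part of other cells in the members' levels was not tested.

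Set against transcript length, Igtp was the most abundant member in every group, at 746.8 CPM per kilobase in Cbl-b-/- OTII cells and 328.0 CPM per kilobase in OTII cells. Gbp2 followed, with 256.7 CPM per kilobase in Cbl-b-/- OTII cells and 122.5 CPM per kilobase in OTII cells. Gbp3 was the least abundant, at 30.6 CPM per kilobase in Cbl-b-/- OTII cells and 12.7 CPM per kilobase in OTII cells. The members tended to vary together: over the 45 pairs, the median correlation of log2 CPM over 18 libraries was 0.846 (0.274 to 0.958), and within groups it was 0.644 (0.0722 to 0.979). These values share libraries and depth and are given as a description. Genes among the most like the mean of the members, by Pearson r over 18 libraries among 15194 other genes, were Cd274, which encodes PD-L1 (0.954), Gbp10 (0.953), Ifi47 (0.947) and Gm12250 (0.944).

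The rest of the IRG and GBP families was a fixed list of 19 genes that also holds Mx1 and Mx2. In Cbl-b-/- OTII cells relative to OTII cells 10 of 19 rose and none fell, with a median log2 fold change of 1.06, where 5.22% of all genes tested rose. The other 9 did not pass, and 5 of them had estimates below 0: Irgc1 (-0.85), Irgq (-0.49), Mx2 (-0.29), 9930111J21Rik1 (-0.14) and 9930111J21Rik2 (-0.09). Ifi47 (Irgd), another IRG gene, averaged 1975 CPM in Cbl-b-/- OTII cells and 867.1 CPM in OTII cells (log2 fold change 1.19, edgeR adjusted p = 0.000162). Gbp4 averaged 805.9 CPM in Cbl-b-/- OTII cells and 387.1 CPM in OTII cells, and Gbp10 averaged 85.9 CPM in Cbl-b-/- OTII cells and 21.9 CPM in OTII cells. Gbp5, which supports inflammasome assembly, rose by 0.82 on the log2 scale, and Gm4951 by 2.97. Relative to Cbl-b-/- OTII cells, 6 of the 19 fell in Cbl-b-/-W131AOTII cells, Gm12250, Gbp5, Gbp10, Ifi47, Mx2 and Gm4951. Relative to W131AOTII cells, 4 rose there, among them F830016B08Rik (2.66) and Gm4951 (1.62), and 2 fell, Mx1 (-1.54) and Mx2 (-1.63). Mx1 and Mx2 belong to a GTPase family induced by type I interferon, and GENCODE M21 lists Mx2 as a polymorphic pseudogene.

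The genes that carry the interferon signal were mixed. Among the transcription factors, Irf1 had 1034, 1122 and 919.4 CPM in the Cbl-b-/- OTII libraries, against 819.2, 699.0 and 713.0 CPM in the OTII libraries. These groups did not overlap, and Irf1 rose by 0.46 and Irf9 by 0.38 on the log2 scale (edgeR adjusted p = 0.0161 and 0.04). Neither passed without the 3 libraries left out together (Irf1 0.39, edgeR adjusted p = 0.107; Irf9 0.32, edgeR adjusted p = 0.174), and leaving out single libraries gave adjusted p-values in edgeR of 0.00907 to 0.124 for Irf1 and 0.0401 to 0.259 for Irf9. Of 12 receptors, kinases and brakes, Socs1, an inhibitor of Jak kinases, rose by 0.90 (edgeR adjusted p = 0.00551), while Tyk2, Jak1, Ptpn6 and Socs3 fell by 0.48 to 0.70; without the 3 libraries left out together 2 of the 12 passed. The interferon-gamma receptor chain Ifngr1 had a log2 fold change of 0.45 (edgeR adjusted p = 0.066) and Ifngr2 one of 0.01. Relative to Cbl-b-/- OTII cells, Irf7, Irf9 and Irf1 fell in Cbl-b-/-W131AOTII cells by 0.56 to 1.14.

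Interferon-gamma transcripts themselves were near the limit of detection. Ifng had 3, 15 and 9 counts in the Cbl-b-/- OTII libraries, against 0, 2 and 0 counts in the OTII libraries, a ratio of summed counts per library size of 16.5 with an exact 95% interval of 4.14 to 143.1 that covers counting error only. In Cbl-b-/-W131AOTII libraries it had 17, 4 and 10 counts, against 0, 1 and 1 counts in W131AOTII libraries, a ratio of 16.9 (4.30 to 145.8). The interaction for Ifng was -0.05 ± 1.82 on the log2 scale (edgeR adjusted p = 1), and with 2 counts in each denominator the wide intervals do not show whether the ratios differ. Thymic libraries had 5 to 17 Ifng counts. In the list of 10 genes of interferon-gamma production and Th1 cells, Cxcr3 and Tbx21, the gene of the Th1 regulator T-bet, rose with Ifng in Cbl-b-/- OTII cells and Stat4 fell.

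Targets linked to interferon-gamma and to type I interferon were counted separately. Of 17 tested interferon-gamma-associated targets, 10 rose in Cbl-b-/- OTII cells relative to OTII cells and none fell, with a median log2 fold change of 0.69. They included Serpina3g (2.46), a serine protease inhibitor, Ly6a (0.98), the Sca-1 antigen, Cd274 (0.90) and Casp1 (1.34), an inflammasome protease. The count was 6 without the 3 libraries left out together and 3 without OTII replicate 3. Of 20 type I interferon antiviral genes, 3 rose, Rtp4, Xaf1 and Oasl2, with a median log2 fold change of 0.003. Their count fell to 1 without Cbl-b-/- OTII replicate 1 or 2 or OTII replicate 2, and to 0 without OTII replicate 3, and DESeq2 on all libraries called 4.

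Most type I antiviral genes fell in Cbl-b-/-W131AOTII cells. Relative to W131AOTII cells 17 of 20 fell, with a median log2 fold change of -1.54, while 1 IRG or GBP member fell and 1 rose. Rsad2, the antiviral enzyme viperin, fell by 2.53, Ifit3b by 2.48, Cmpk2 by 1.62 and Ifitm3, which restricts virus entry, by 3.31 on the log2 scale (edgeR adjusted p between 1.9e-06 and 4.91e-06). Of the 17 interferon-gamma-associated targets, 6 passed relative to W131AOTII cells, among them Cxcl10 (-2.40), Ly6a (-0.72) and Zbp1 (-0.59) downward and Casp1 (1.30) upward. Relative to Cbl-b-/- OTII cells 16 of 20 antiviral genes fell, with a median of -1.19, alongside 8 of the 10 members, with a median of -0.93. In that comparison 7 of the 17 interferon-gamma-associated targets fell, Ly6a (-1.16) and Zbp1 (-0.93) among them. B cell markers summed to 1531 to 1678 CPM in Cbl-b-/-W131AOTII libraries, against 1945 to 3181 CPM in W131AOTII libraries, and 9 of the 10 B cell genes fell. The W131AOTII libraries varied widely in them: Igkc ran from 42.4 to 486.3 CPM there, and from 13.9 to 19.7 CPM in Cbl-b-/-W131AOTII libraries. The part of B cells in these changes was not tested. Of 12 genes of ATG8 conjugation and its partners, Atg5 rose in Cbl-b-/- OTII cells relative to OTII cells and the others did not pass, and Sqstm1, an autophagy receptor, fell in Cbl-b-/-W131AOTII cells relative to W131AOTII cells.

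**Figure D4:**
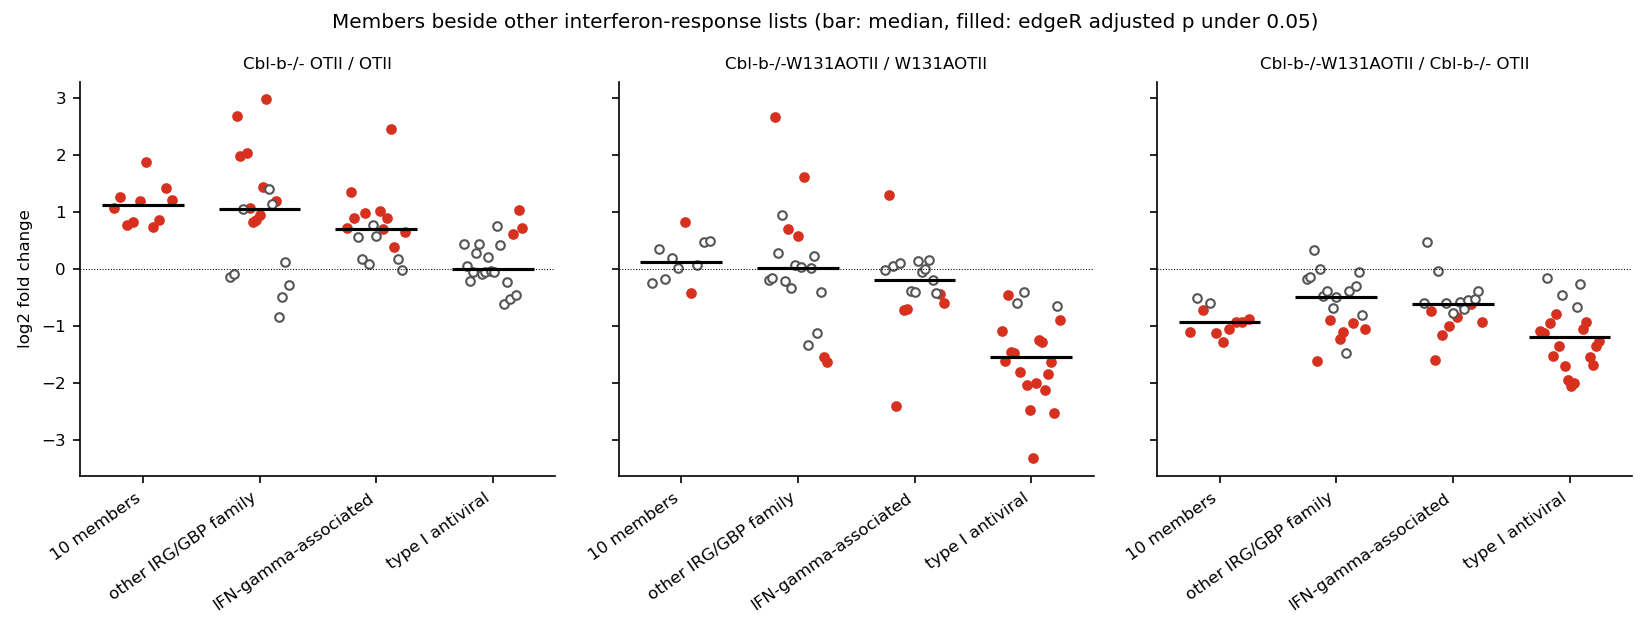
Log2 fold change (y axis) of the 10 members and of 3 fixed lists in 3 comparisons, with each point a gene, the bar the median and filled points past the edgeR threshold. For Cbl-b-/- OTII against OTII all 10 members and all interferon-gamma-associated targets but Tapbp (-0.02) lie above 0, where the type I antiviral genes have a median near 0, and the antiviral genes lie lowest for Cbl-b-/-W131AOTII against W131AOTII.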

How the data were processed

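The authors deposited unnormalized read counts by Ensembl gene, 1 column per library. Per the submitters' processing notes, STAR 2.7.2, GRCm38 and DESeq2 were used; no source used here says how reads were counted, on which strand, or what was done with reads that match several genes. All 18 libraries entered 1 edgeR 4.0.16 fit (R 4.3.3) without further covariates, which left 12 degrees of freedom for the spread. Low genes were removed by filterByExpr and libraries were scaled by TMM. Quasi-likelihood F tests were Benjamini-Hochberg adjusted over the 15204 genes, at a threshold of 0.05. An SE is the log2 fold change divided by the square root of F. CPM per kilobase used the union of GENCODE M21 exons. Comparisons share libraries and are not independent. The fit was tested on simulated data. The members, gene lists and tests were chosen with earlier results of these data known. Named genes are all members, Cblb, Zap70, other family genes, up to 4 genes of each list per comparison with the smallest adjusted p, Ifng, Irf1, Socs1, Ifngr1 and Ifngr2, the 2 most abundant markers of each other-cell list, and the 5 genes most like the members; 1 gene that the rule names is not reported here. Zap70 differed by -0.68 on the log2 scale between Cbl-b-/-W131AOTII and W131AOTII cells (edgeR adjusted p = 0.0431). Alternatives were library-size scaling, DESeq2 1.42.0, no filter, a fit of the compared groups alone, a replicate block, GC content and length offsets, and leaving out libraries. Promoter sequences come from RefSeq and coding sequences from GENCODE M21.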

Additional observations from a re-analysis of the deposited data

Results flagged for a closer look

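The effect of Cbl-b loss differed between cells with and without W131A for 6 members, by the interaction test across all genes. The difference (effect with W131A minus effect without) was -1.17 on the log2 scale for Igtp, -1.15 for Irgm1, -0.78 for Irgm2, -1.31 for Gbp2, -0.92 for Gbp3 and -0.95 for Gbp7. Groups of 3 libraries were not tested for single outlying samples.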

How the results depend on the processing

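Each comparison was refitted in 14 ways, and each difference of effects in 20. For Cbl-b-/- OTII against OTII cells, the count of members past the threshold was 10 in every alternative but those that left out 1 library, where it ran from 9 to 10. For Cbl-b-/-W131AOTII against Cbl-b-/- OTII cells it ran from 5 to 9 with 1 library left out and from 8 to 10 otherwise. Library-size scaling gave 4 members for Cbl-b-/-W131AOTII against W131AOTII, 2 for Cbl-b-/-W131AOTII against OTII, 3 for the interaction, 1 for OTII periphery against thymus and 3 for W131AOTII periphery against thymus. In the first 3 the median of all genes was 0.179, 0.155 and 0.115 with that scaling, against 0.030, 0.036 and -0.018 in the main fit. DESeq2 gave 3 for W131A in the thymus and 1 for W131A in periphery against thymus. Without the filter, the counts were 4, 3, 2 and 1 for Cbl-b-/-W131AOTII against W131AOTII, Cbl-b-/-W131AOTII against OTII, W131A in the thymus and W131A in periphery against thymus. Fitting the compared groups alone gave 4 for Cbl-b-/-W131AOTII against OTII, 0 for W131A in the thymus and 3 for W131AOTII periphery against thymus. GC content and length offsets gave 2 for Cbl-b-/-W131AOTII against OTII, 2 for W131A in the thymus, 4 for OTII periphery against thymus and 1 for W131A in periphery against thymus. Leaving out 3 libraries together gave 0 for Cbl-b-/-W131AOTII against W131AOTII and 1 each for OTII periphery against thymus and W131A in periphery against thymus. With 1 library left out the counts ran from 0 to 2 (Cbl-b-/-W131AOTII against W131AOTII), 3 to 7 (interaction), 0 to 2 (W131A in the thymus), 1 to 1 (OTII periphery against thymus), 3 to 5 (W131AOTII periphery against thymus) and 0 to 1 (W131A in periphery against thymus). The causes of these shifts were not tested.

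Replicate numbers gave no clear pairing of the libraries: no comparison had a correlation above 0.1 in every same-numbered pair. These correlations use deviations from means of 3 libraries and cannot show whether libraries share mice or batches. A replicate block left the members' count within 1.5 times in every comparison, and with the GC and length offsets it gave 2, 3, 4 and 1 for the comparisons named for those offsets. Counts of all genes moved more: for Cbl-b-/- OTII against OTII cells, 1249 genes changed, against 2083 with DESeq2 and 311 without the 3 libraries left out together. Of 45 pairs of a member and a comparison that passed in no alternative, 22 changed sign in at least 1 refit, with values up to 0.19 in size.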
